A study of Mus musculus with 14 samples.

Results

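The imprinted cluster of distal mouse chromosome 7 was examined in cloned and fertilized blastocysts through 10 genes, *H19*, *Igf2*, *Ascl2*, *Cd81*, *Tssc4*, *Kcnq1*, *Cdkn1c*, *Slc22a18*, *Phlda2* and *Osbpl5*, given here in their order along the chromosome. The members were all gene probes of the array whose gene name in the scanner files was one of these, which gave 10 of 27962 gene names and 15 of 41174 gene probes. Blastocysts were cultured in vitro to embryonic day 4.0. The 4 fusion clones were made by fusing a cumulus cell with an enucleated oocyte, and the 4 injection clones by injecting a cumulus cell nucleus into one. The controls were 3 male and 3 female embryos made by in vitro fertilization (IVF), and the clones, which carry the genome of a female cell, were compared with the female ones. The study's methods describe donor mice heterozygous for an *Xist* knockout on a BDF1 background and BDF1 recipient oocytes, and the design text calls the controls sex- and genotype-matched, although the labels of the arrays give no genotype. All embryos were cultured in KSOM medium. Total RNA was amplified linearly and hybridized to a one-colour Agilent mouse array. Whether an array held 1 blastocyst is not stated in the labels, so p-values measure the spread between arrays, which may in part be technical.

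Imprinted genes are transcribed mainly from the allele of 1 parent. At *Igf2* and *H19* a control region that is methylated on the paternal allele lets a shared set of enhancers act on *Igf2*, a fetal growth factor, on the paternal chromosome and on *H19*, a long non-coding RNA, on the maternal one. In the neighbouring *Kcnq1* domain the paternally expressed antisense RNA *Kcnq1ot1*, which starts in a control region within *Kcnq1*, silences genes on both sides of it, among them the growth restrainers *Cdkn1c* and *Phlda2*. Several genes farther out are imprinted only in the placenta. The array reads the sum of both alleles, so parental origin was not measured.

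The sequences that frame these genes come from RefSeq tables of build GRCm38.p6, which held promoters (250 bases before to 50 after a transcription start) for 7 of the 10 genes. The promoters of *Igf2*, *Slc22a18* and *Cd81* are shown because these 3 genes passed the threshold of the study's methods in both kinds of clones, and that of *Kcnq1ot1* because its start lies in the control region of the domain. Capitals mark each CG, the dinucleotide at which imprints are methylated, which reads the same on both strands. *Igf2* had 4 promoters in the table with 2 to 24 CG, and the one printed, chr7:142658755-142659054 on the minus strand, held 24. As many or more were found in 20% of all 32851 promoters, whose median was 7.
Igf2: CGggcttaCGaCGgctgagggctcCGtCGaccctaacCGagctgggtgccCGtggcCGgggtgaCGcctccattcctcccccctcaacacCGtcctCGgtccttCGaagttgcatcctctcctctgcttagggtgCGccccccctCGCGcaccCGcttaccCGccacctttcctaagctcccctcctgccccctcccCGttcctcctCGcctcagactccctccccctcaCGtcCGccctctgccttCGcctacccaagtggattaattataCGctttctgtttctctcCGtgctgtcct
The *Cd81* promoter, chr7:143052500-143052799 on the plus strand, held 23 CG, a count reached by 21.5% of promoters.
Cd81: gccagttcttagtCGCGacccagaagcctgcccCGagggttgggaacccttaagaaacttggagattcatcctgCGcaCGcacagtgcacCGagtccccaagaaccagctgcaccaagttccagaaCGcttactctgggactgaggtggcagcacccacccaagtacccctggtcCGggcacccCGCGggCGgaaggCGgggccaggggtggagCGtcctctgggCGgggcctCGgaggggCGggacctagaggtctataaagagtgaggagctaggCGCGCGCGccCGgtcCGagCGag
That of *Slc22a18*, chr7:143473539-143473838 on the plus strand, held 2, as many as or fewer than in 85.9% of promoters.
Slc22a18: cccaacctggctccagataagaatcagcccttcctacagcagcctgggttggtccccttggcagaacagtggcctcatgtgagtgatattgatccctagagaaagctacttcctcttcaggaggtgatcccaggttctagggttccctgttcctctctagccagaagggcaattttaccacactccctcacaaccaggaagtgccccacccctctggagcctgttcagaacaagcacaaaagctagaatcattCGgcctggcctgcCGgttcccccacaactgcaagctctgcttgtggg
That of *Kcnq1ot1*, chr7:143296498-143296797 on the minus strand, held 9, reached by 45.8%.
Kcnq1ot1: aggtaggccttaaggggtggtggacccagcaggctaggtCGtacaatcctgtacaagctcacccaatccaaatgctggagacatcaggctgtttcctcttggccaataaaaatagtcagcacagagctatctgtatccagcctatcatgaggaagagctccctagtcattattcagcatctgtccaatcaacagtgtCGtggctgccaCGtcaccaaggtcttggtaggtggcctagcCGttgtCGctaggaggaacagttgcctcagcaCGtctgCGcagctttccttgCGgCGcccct
A microRNA lies inside each transcript of the first domain. The mature forms of miR-675, inside *H19*, and miR-483, inside *Igf2*, are given because the signals of *H19* and *Igf2* are those of their host genes, while the microRNAs themselves were not measured here. Their seeds (bases 2 to 8), in capitals, are 4 different ones.
mmu-miR-675-5p (H19, chr7:142577112-142577133, minus strand): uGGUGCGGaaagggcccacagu
mmu-miR-675-3p (H19, chr7:142577078-142577099, minus strand): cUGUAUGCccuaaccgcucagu
mmu-miR-483-5p (Igf2, chr7:142654968-142654989, minus strand): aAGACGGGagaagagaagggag
mmu-miR-483-3p (Igf2, chr7:142654932-142654952, minus strand): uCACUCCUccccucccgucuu

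All values below are log2 signals after quantile normalization, so a difference of 1 is a 2-fold difference, and levels are compared only for the same probe. A gene was read by its brightest probe, and called when the adjusted p of limma's test over all probes tested was below 0.05. The 4 groups occupied 4 slides, and clones and IVF embryos also differed in scanner and in the version of the scanner software, so these and the groups cannot be told apart. Processed signals below 0 were found for 6790 to 9981 gene spots on each IVF array and for 0 on each clone array. Values near the floor of the scale may therefore not compare alike between clones and IVF embryos. Between 57.4% and 65.2% of the spots of an array were well above background. Among the listed markers of blastocyst lineages, 10 epiblast genes, 15 trophectoderm genes and 15 primitive endoderm genes were on the array. Every group had signal well above background for each epiblast gene. These genes summed to 553705 to 606103 in male and 582022 to 615931 in female IVF embryos, 582557 to 630133 in fusion clones and 603432 to 648550 in injection clones. Of the 10 epiblast genes 0 passed limma's test in fusion clones against female embryos. In injection clones 1 rose and 0 fell, where 1.52% of all probes rose and 2.1% fell. Trophectoderm markers summed to 1042299 to 1210616 signal units in female IVF embryos, 850186 to 1106828 in fusion clones and 758469 to 1038961 in injection clones. Of 21 cumulus cell genes, 12 were not well above background on any fusion clone array and 10 on any injection clone array, and their summed signal was 1301 to 3020 over the 14 arrays. The gene *Fst* of this list is also in the endoderm list. Of the cumulus genes 0 passed limma's test in either comparison of clones with female embryos, and 2 in fusion and 4 in injection clones were below an unadjusted p of 0.05, as were 27.1% and 23.2% of all probes.

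*Igf2* was the member that separated clones from IVF embryos on each of its probes. The brighter one, A_51_P516826, printed in 10 spots per array, gave 9.43, 11.21, 10.67 and 11.39 in fusion clones and 11, 11.29, 10.43 and 10.86 in injection clones. In male IVF embryos it gave 13.11, 12.79 and 13.04, and in female IVF embryos 11.69, 12.36 and 12.61. All 8 clones thus lay below all 6 IVF embryos, a complete separation in this direction that 4.03% of 34951 probes had. The spread over the 10 spots was small, with a median SD of 0.056 on the log2 scale within an array. The difference from female IVF embryos was -1.54 ± 0.52 (standard error, SE) in fusion clones, with a 95% interval of -2.78 to -0.31, a 2.91-fold lower level that did not pass limma's test (adjusted p = 0.116). In injection clones the difference was -1.32 ± 0.30, 2.50-fold (adjusted p = 0.0673).

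The second *Igf2* probe, A_51_P516833, passed the test in both comparisons. Its values were 6.5, 7.91, 7.36 and 7.91 in fusion clones, 7.6, 7.86, 7.35 and 7.95 in injection clones, 9.85, 9.63 and 9.99 in male and 8.73, 9.5 and 9.65 in female IVF embryos. Again no clone reached the lowest IVF embryo. By this probe *Igf2* fell by 1.88 ± 0.43 (SE), 3.67-fold, in fusion clones (adjusted p = 0.0434) and by 1.60 ± 0.28, 3.04-fold, in injection clones (adjusted p = 0.0428), falls shared in limma's test by 4.99% and 2.1% of all probes. The call was narrow: it was lost in all 7 fits that left out 1 array for fusion clones (adjusted p 0.0570 to 0.119) and in 6 of 7 for injection clones (0.0331 to 0.0999), while the differences stayed between -1.57 and -2.16 and between -1.43 and -1.88. Lower levels of a transcript in whole blastocysts can come from fewer cells of a type or less RNA per cell, which cannot be told apart. The summed signal of the primitive endoderm markers was also lower in clones than in female embryos: 407078 to 557233 in female IVF embryos, 283600 to 392530 in fusion clones and 214769 to 325437 in injection clones. Of these 15 markers 2 fell and 0 rose in fusion clones and 3 fell and 0 rose in injection clones, the other 13 and 12 did not pass, and over all probes 4.99% and 2.1% fell. Among the markers that fell, *Foxa2*, an endoderm transcription factor, was not well above background in any of the 8 clones. Its mean was 4.0, the floor of the scale, in both clone groups and 11.19 in female embryos. It passed limma's test in fusion clones (adjusted p = 8e-05) and injection clones (adjusted p = 9e-05). The size of the fall and these p-values depend on the floor. Male IVF embryos, which had the highest *Igf2*, had primitive endoderm sums of 279261 to 487934 and trophectoderm sums of 1128367 to 1189902. Of 14 tested trophectoderm markers 1 fell and 0 rose in each comparison of clones with female embryos. The part of the markers in the *Igf2* result was not tested.

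**Figure D1:**
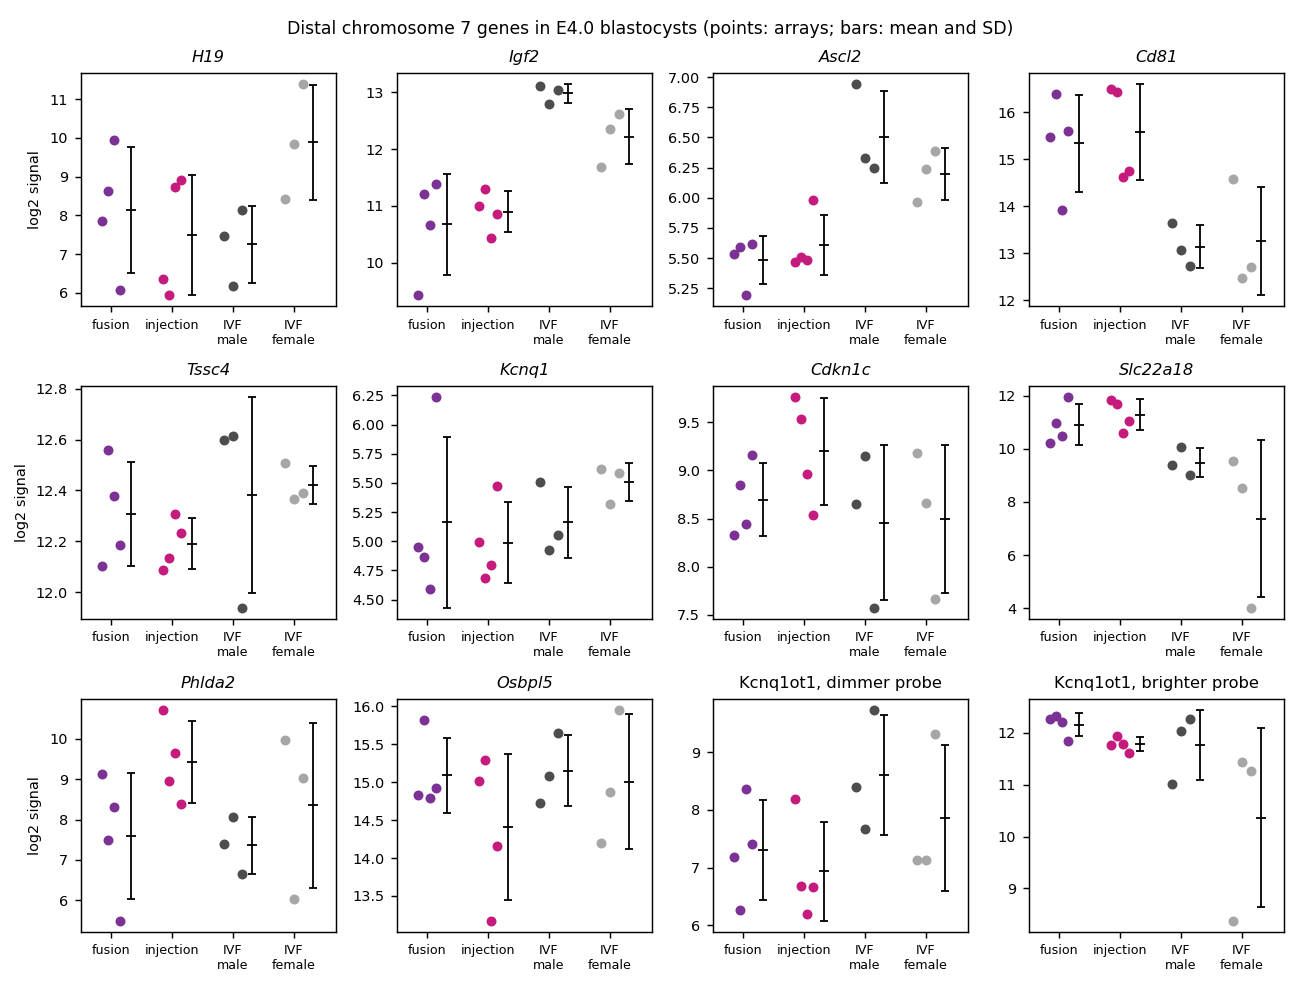
Log2 signal (vertical axis) of the 10 genes in chromosome order and of both probes read as *Kcnq1ot1*, by embryo group; each point is an array and the bar beside the points is the mean and SD (n = 4 per clone group, 3 per IVF group). For *Igf2* all 8 clones sit below all 6 IVF embryos, for *Slc22a18* all 8 sit above, and *H19* and *Phlda2* range widely within groups.

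*H19*, the partner of *Igf2*, varied so much between arrays that clones and IVF embryos overlapped. Its brighter probe gave 7.86, 8.64, 9.96 and 6.06 in fusion clones and 6.36, 5.94, 8.73 and 8.90 in injection clones. Male IVF embryos had 7.46, 6.17 and 8.13, and female IVF embryos 8.42, 9.85 and 11.40, the last being the highest value of the 14 arrays. Of the 4 clones of each method, 2 lay below every female embryo and the others within their range. The difference from female embryos was -1.76 ± 1.05 in fusion clones (adjusted p = 0.343) and -2.40 ± 1.05 in injection clones (adjusted p = 0.236), and leaving out the female array at 11.40 moved these to -1 and -1.65. The dimmer probe, with values of 4.43 to 6.52 over all arrays, gave -0.73 and -0.76. Hence *Igf2* and *H19*, which are expressed from opposite alleles, both had lower means in clones than in female embryos, and the *H19* differences did not pass the test, with overlapping values.

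Of the growth restrainers, *Cdkn1c*, which encodes an inhibitor of cyclin-dependent kinases, was at similar levels in all groups, with 8.33 to 9.16 in fusion clones, 8.53 to 9.77 in injection clones, 7.57 to 9.15 in male and 7.67 to 9.18 in female IVF embryos. Its mean differed from that of female embryos by 0.19 ± 0.40 in fusion clones (95% interval -0.77 to 1.16) and 0.70 ± 0.46 in injection clones (-0.41 to 1.81). *Phlda2*, which restrains placental growth, was the member that differed most between the cloning methods. Its brighter probe gave 9.12, 7.50, 8.31 and 5.49 in fusion clones, against 10.72, 8.94, 9.65 and 8.39 in injection clones. Among fusion clones 3 lay below every injection clone, while the one at 9.12 was within their range. The difference of -1.82 ± 0.85 did not pass (adjusted p = 0.818), although only 1.38% of tested probes differed more between the methods. The other probe gave -1.48 ± 0.65, with the same array highest among injection clones (9.42). Female IVF embryos, at 9.98, 6.04 and 9.03, spanned nearly the whole range of the clones, and male ones lay at 6.65 to 8.05. Against female embryos *Phlda2* differed by -0.75 ± 1.18 in fusion and 1.08 ± 1.04 in injection clones.

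*Ascl2*, a transcription factor needed for the spongiotrophoblast of the placenta, was dim but above background. It measured 5.53, 5.59, 5.19 and 5.62 in fusion clones, 5.47, 5.51, 5.48 and 5.98 in injection clones, 6.94, 6.33 and 6.25 in male and 5.96, 6.24 and 6.39 in female IVF embryos. All fusion clones and 3 of 4 injection clones lay below every IVF embryo. The differences from female embryos were -0.72 ± 0.20 (adjusted p = 0.0725) and -0.59 ± 0.20 (adjusted p = 0.144). Without the lowest female array (5.96) the fusion value became -0.83 and passed (adjusted p = 0.0496). Among 20 alternative settings *Ascl2* was called in 2 for fusion clones and in 0 for injection clones. Apart from left-out arrays, these settings gave differences of -0.76 to -0.30 in fusion clones and -0.71 to -0.24 in injection clones.

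*Slc22a18*, a transporter-like membrane protein, lay on the other side. Fusion clones gave 10.21, 10.97, 10.49 and 11.96 and injection clones 11.84, 11.69, 10.58 and 11.03. Male IVF embryos gave 9.38, 10.06 and 9, whereas female ones gave 9.55, 8.54 and 4, the last being the floor of the scale, in an array where the probe was not well above background. All 8 clones exceeded all 6 IVF embryos, as they did for 2.26% of probes. The differences from female embryos, 3.54 ± 1.31 (adjusted p = 0.143) and 3.92 ± 1.32 (adjusted p = 0.149), were among the largest of all probes, with 2.02% and 0.842% of tested probes differing more. They rested to a large extent on the array at the floor: without it they were 1.86 (adjusted p = 0.137) and 2.24 (adjusted p = 0.106), still with no overlap between groups. The other *Slc22a18* probe was well above background in all arrays but as dim as that of *Ascl2*, with 5.55 to 6.39 in all 14 arrays. It showed no such pattern, with differences of 0.06 ± 0.22 and -0.03 ± 0.18, so that the probes of this gene disagreed. Signal near background limits what this dimmer probe can show.

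**Figure D2:**
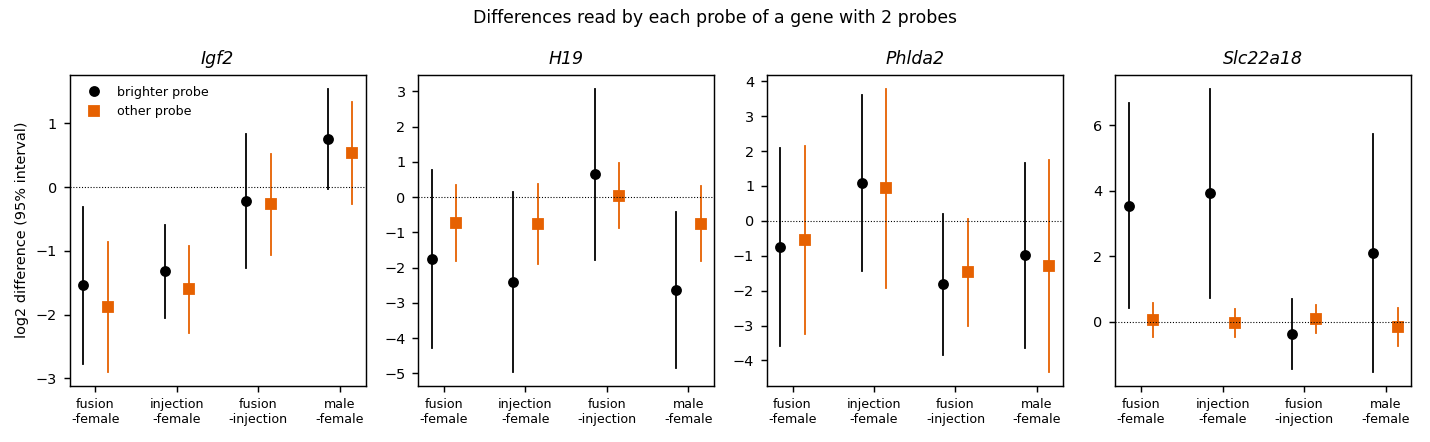
Log2 difference with its 95% interval (vertical axis) for each comparison (horizontal axis), read by the brighter and by the other probe of the genes with a second probe of the same transcript. Both probes of *Igf2* lie below 0 in clones against female IVF embryos, and for *Slc22a18* the brighter probe gives 3.54 and 3.92 where the other gives 0.06 and -0.03.

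*Cd81*, a tetraspanin of the cell surface, had a single, very bright probe. It gave 15.48, 16.39, 13.91 and 15.60 in fusion clones, 16.50, 16.44, 14.63 and 14.76 in injection clones, 13.64, 13.07 and 12.72 in male and 14.58, 12.47 and 12.72 in female IVF embryos. Of the 8 clones 7 lay above all IVF embryos, and the exception was the fusion clone at 13.91. The mean was higher than in female embryos by 2.09 ± 0.73, 4.26-fold, in fusion clones (adjusted p = 0.128) and by 2.33 ± 0.75, 5.02-fold, in injection clones (adjusted p = 0.135), and neither passed. Without the female array at 14.58 the differences were 2.75 and 2.99 (adjusted p = 0.0821 and 0.0986).

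The remaining genes did not pass in either comparison with female embryos. *Tssc4*, an assembly factor of the splicing machinery, stayed between 11.94 and 12.61 in all 14 arrays and differed from female embryos by -0.12 ± 0.18 in fusion and -0.23 ± 0.13 in injection clones, all of which lay below every female embryo. *Osbpl5*, a lipid transfer protein, was very bright, with 13.17 to 15.82 in clones and 14.20 to 15.96 in IVF embryos, and differed by 0.08 ± 0.47 and -0.60 ± 0.65. *Kcnq1*, a potassium channel, was near the lower end of the signal range, at 4.59 to 6.24 in clones and 4.92 to 5.62 in IVF embryos, with differences of -0.35 ± 0.41 and -0.52 ± 0.23 (adjusted p = 0.597 and 0.236).

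A second probe that the scanner files name *Kcnq1*, A_52_P618494, matched by accession the antisense RNA *Kcnq1ot1* and was read as such. It gave 6.26 to 8.37 in fusion clones, 6.20 to 8.18 in injection clones, 7.68 to 9.74 in male and 7.12 to 9.31 in female IVF embryos, and differed from female embryos by -0.55 ± 0.71 and -0.92 ± 0.72. The probe named *Kcnq1ot1* itself, which is no member, went the other way. It was steady in clones, at 11.84 to 12.32 after fusion and 11.62 to 11.94 after injection, and gave 11.01, 12.05 and 12.27 in male and 8.37, 11.45 and 11.27 in female IVF embryos. Its differences from female embryos were 1.80 ± 0.75 (adjusted p = 0.182) and 1.42 ± 0.76 (adjusted p = 0.325), which became 0.80 and 0.42 without the female array at 8.37. The 2 probes therefore gave no common direction for *Kcnq1ot1*.

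Counted over the cluster, 0 of the 10 genes passed limma's test through the brightest probe when fusion clones were compared with female IVF embryos, where 9.34% of all 32337 tested probes passed. In injection clones 0 passed, against 3.62% of 32772 probes. With any probe of a gene counted, it was 1 gene, *Igf2*, in each. At an unadjusted p below 0.05 there were 4 genes in each comparison. *Igf2* and *Ascl2* were lower, as 15.9% of all probes were in fusion and 13.4% in injection clones, and *Slc22a18* and *Cd81* higher, as 11.2% and 9.79% were. The study's methods combine a significance level with a 2-fold filter and state no adjustment. Their threshold, read here as an unadjusted p below 0.05 with a 2-fold difference, called 3 genes in each comparison. *Igf2* was lower by it, with 8.73% and 7.12% of probes, and *Slc22a18* and *Cd81* were higher, with 8.56% and 6.96%. Groups did not overlap for 3 genes in fusion clones, *Igf2* and *Ascl2* lower (15.4% of probes) and *Slc22a18* higher (10.5%). In injection clones they did not overlap for 4, *Igf2* and *Tssc4* lower (12.5%) and *Slc22a18* and *Cd81* higher (8.41%). The median difference over the 10 genes was -0.23 in fusion clones, where that of all probes was -0.12, and -0.38 in injection clones, where it was -0.08, and 6 of 10 genes had the lower mean in clones in each. These shares over 10 genes are a description, and both comparisons used the same 3 female arrays.

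**Figure D3:**
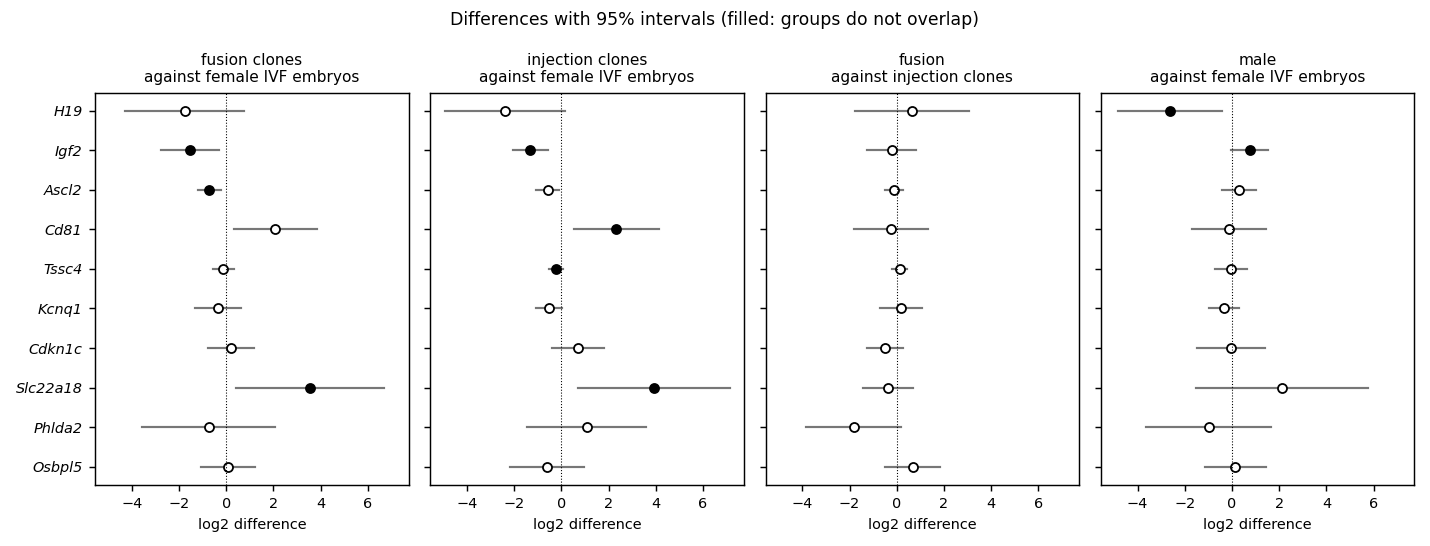
Log2 difference (horizontal axis) of each gene, in chromosome order, in the 4 comparisons, with 95% intervals; filled points mark groups whose values do not overlap. *Slc22a18* and *Cd81* lie to the right and *Igf2* and *Ascl2* to the left in both clone groups, while every interval of the comparison between cloning methods includes 0.

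Between the cloning methods 0 of 10 genes passed, as did 0 of 32165 probes in all (0.0%), and 0 of the 10 were below an unadjusted p of 0.05, where 6.12% of probes were. All 10 genes overlapped between the methods, whereas 3.33% of probes did not. The methods' threshold called 0 of the 10 and 2.43% of probes. The intervals set a bound on what could have been missed: for *Igf2* the difference of -0.22 had a 95% interval of -1.27 to 0.82, for *Slc22a18* that of -0.38 one of -1.44 to 0.68, and for *Cd81* that of -0.24 one of -1.82 to 1.34. For *H19* the interval was -1.78 to 3.08 and for *Phlda2* -3.83 to 0.19, so differences of several fold between methods could not be seen for these genes.

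Male and female IVF embryos, which were made in the same way, did not overlap for 2 members, *Igf2* and *H19*. The sexes were on different slides, so sex and slide cannot be told apart. All 3 male embryos (12.79 to 13.11) exceeded all 3 female ones (11.69 to 12.61) for *Igf2*, by 0.76 ± 0.32 (adjusted p = 0.649), while all 3 male embryos (6.17 to 8.13) lay below the female ones (8.42 to 11.40) for *H19*, by -2.63 ± 0.89 (adjusted p = 0.590). *Slc22a18* differed by more than *Igf2*, 2.12 ± 1.47, with overlapping values. Neither *Igf2* nor *H19* passed, and the second probe of each gene gave the same direction with overlapping values (0.53 ± 0.32 and -0.76 ± 0.43). In this comparison 0 of the 10 genes passed, and 0.0594% of 31986 probes did. With the replicate number as a block, 0 of 10 genes and 0.0% of probes passed. At an unadjusted p below 0.05 it was 1 gene, *H19*, lower in males, as 4.03% of probes were, and by the methods' threshold it was *H19* again, with 2.85% of probes. The absence of overlap was shared by 6.03% of probes in the direction of *Igf2* and 6.82% in that of *H19*. *Igf2* was lower in clones than in embryos of both sexes, so for this gene the order of group means ran from male IVF through female IVF and injection clones to fusion clones, and only the clone groups overlapped. For *H19* each neighbouring pair of groups in the order overlapped.

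The spread between arrays of a group was itself uneven across the cluster. *H19* had an SD of 1.63 in fusion clones, 1.55 in injection clones, 0.99 in male and 1.49 in female IVF embryos, larger than that of 95.7%, 94.4%, 81.1% and 89.3% of tested probes. *Phlda2* reached 1.56 in fusion clones and 2.05 in female embryos, above 95% and 95.4% of probes. The largest SD was that of *Slc22a18* in female embryos, 2.96, above 99.1% of probes, with 1 array at the floor of the scale. At the other end *Tssc4* had SDs of 0.08 to 0.39. Over all probes the median SD was 0.33, 0.38, 0.44 and 0.41 in the 4 groups, and 8, 6, 6 and 7 of the 10 genes exceeded it. The high SD was therefore not limited to clones.

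**Figure D4:**
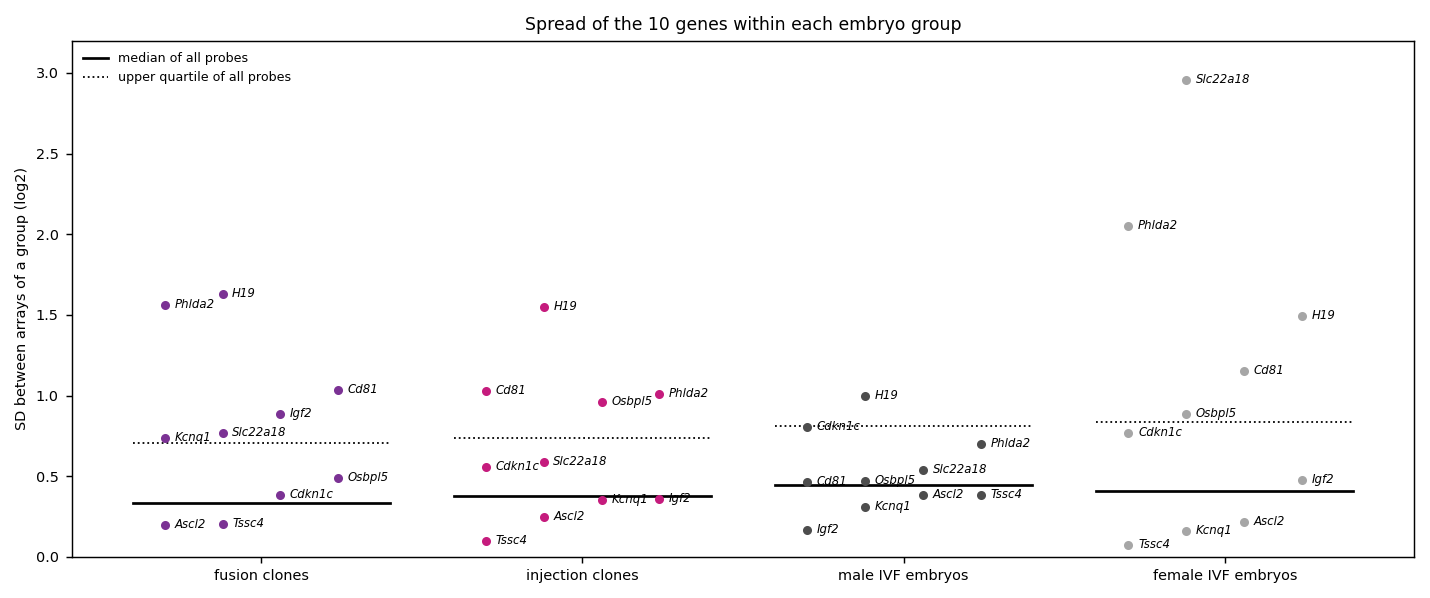
SD of log2 signal between the arrays of a group (vertical axis) for each of the 10 genes, by group; solid lines are the median and dotted lines the upper quartile over 34951 probes. *H19* and *Phlda2* lie above the upper quartile in both clone groups and in female IVF embryos.

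Around the cluster no listed neighbour passed. Of 22 listed genes of distal chromosome 7, 20 were on the array, 19 were tested in each comparison with female embryos, and 0 passed limma's test, while 1 in fusion and 1 in injection clones were below an unadjusted p of 0.05, where 27.1% and 23.2% of all probes were. Their median difference was 0.00 in both, where that of all probes was -0.12 and -0.08. In IGF and insulin signalling, the pathway of *Igf2*, the 19 and 20 tested genes had medians of -0.64 and -0.52, and 1 passed in each comparison, where 9.34% and 3.62% of all probes passed. Below an unadjusted p of 0.05 were 10 of the 19 and 8 of the 20, and 27.1% and 23.2% of all probes. *Igfbp6*, an IGF binding protein, was not well above background on any fusion clone array. Its mean there was 4.0, the floor of the scale, against 5.17 ± 0.36 (SD, n = 3) in female embryos (adjusted p = 0.0240). The size of this fall and its p-value depend on the floor. The call was kept in 4 of 7 fits that left out 1 array and lost without fusion clone replicate 1, 2 or 3. *Igf1*, the other growth factor ligand, fell from 10.20 ± 0.85 (SD, n = 3) in female embryos to 4.88 ± 1.77 (SD, n = 4) in injection clones, 1 of which was well above background (adjusted p = 0.0485). The fitted difference of -5.32 ± 1.01 (SE) depends on the floor of the scale, since the other 3 arrays were not well above background. In fusion clones, 2 of 4 well above background, it stood at 5.98 ± 2.30 (-4.22, adjusted p = 0.0833). The call in injection clones was kept in 1 of the 7 fits that left out 1 array. A dimmer *Igf1* probe, A_52_P536434, gave -4.22 and -4.68 and passed in both comparisons (adjusted p = 0.0239 and 0.0338), while another probe was at the floor in female embryos.

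Of 19 tested factors listed for imprint maintenance 4 fell and 2 rose in fusion clones, where 4.99% of all probes fell and 4.35% rose. The list is broad and also holds de novo DNA methyltransferases and a Polycomb subunit. In injection clones 4 fell and 0 rose, where 2.1% fell and 1.52% rose. The 4 that fell were the same in both, and the comparisons share their female arrays. *Zfp57*, a zinc finger protein that protects methylated imprints after fertilization, measured 8.26 ± 0.51 (SD, n = 3) in female embryos, 5.22 ± 0.54 (n = 4) in fusion clones and 5.07 ± 0.63 in injection clones. The differences were -3.04 ± 0.38 (SE, adjusted p = 0.00918) and -3.19 ± 0.42 (adjusted p = 0.0257). The clone levels were near those of *Kcnq1* in clones (means of 5.16 and 4.99), so signal near background limits how exactly the size of this fall is known. *Dnmt3b*, a de novo DNA methyltransferase, differed by -2.14 ± 0.30 (adjusted p = 0.0122) and -2.03 ± 0.23 (adjusted p = 0.0178). *Setdb1*, a histone H3 lysine 9 methyltransferase that acts with ZFP57 and TRIM28, differed by -2.0 ± 0.26 (adjusted p = 0.0104) and -1.70 ± 0.27 (adjusted p = 0.0372). *Dnmt1*, the maintenance DNA methyltransferase, also passed in both, with -1.40 and -1.48. Of those that rose in fusion clones, *Suz12*, a subunit of Polycomb repressive complex 2, differed by 0.77 ± 0.16 (adjusted p = 0.0370), and its other probe by 1.5 (adjusted p = 0.0252). *Dnmt3a* rose by 2.42 ± 0.44 (adjusted p = 0.0250) on its brightest probe, but 2 other probes gave -0.93 and -0.15. Leaving out 1 array kept the calls of *Zfp57*, *Dnmt3b* and *Setdb1* in fusion clones in all 7 fits, and in injection clones in 3, 5 and 1 of 7. *Dnmt1* kept its call in 0 and 2 of 7. In fusion clones *Dnmt3a* kept its call in 2 of 7 and *Suz12* in 4 of 7, the latter losing it without fusion clone replicate 1, 2 or 3.

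**Figure D5:**
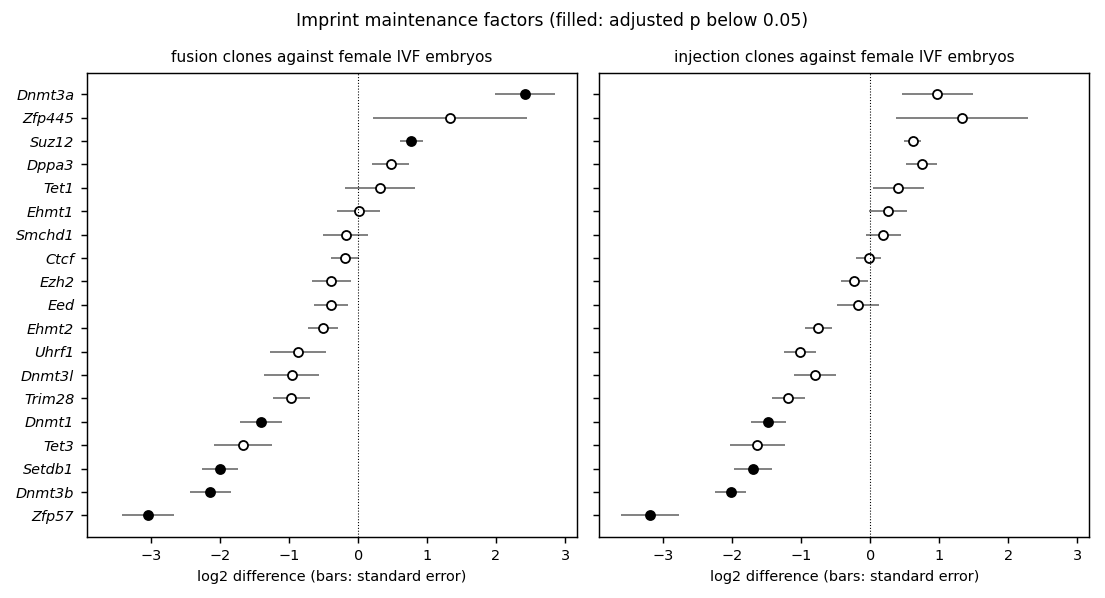
Log2 difference from female IVF embryos (horizontal axis, bars are standard errors) of 19 factors listed for imprint maintenance in fusion clones (left) and injection clones (right). Filled points passed at an adjusted p below 0.05. *Zfp57* lies lowest in both panels, at -3.04 and -3.19.

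Genes whose profile over the 14 arrays was most like that of a member were sought among 15744 named probes well above background on all arrays, by the root mean square difference of log2 values centred on each probe. For *Igf2*, whose own root mean square deviation was 1.05, these were *Gstm2* on chromosome 3 (0.29) and *Cacnb3* on chromosome 15 (0.35). For *Cd81*, with its own 1.39, they were *Midn* (0.60) and *Rhod* (0.63), and for *H19*, with its own 1.58, *Plekhg4* (0.85) and *Rnf186* (1.04). The nearest for *Phlda2*, with its own 1.45, were *Srpk2* (0.77) and *Yaf2* (0.80). For *Ascl2*, with its own 0.47, they were *Sart3* and *Jph4* (0.15 each), and for *Cdkn1c*, with its own 0.60, *Adprhl2* (0.34) and *Cilp* (0.35). *Kcnq1*, with its own 0.44, came closest to *Pnmal1* (0.19) and *Spata21* (0.24), and *Osbpl5*, with its own 0.70, to *Wdfy3* (0.42) and *Foxred2* (0.43). *Tssc4* came closest to *Dhx30* and *Atad3a* (0.15 each), but its own value was only 0.20, so a small difference says little there. No member was among the 2 nearest of another member. *Slc22a18* was left out because 1 array was not well above background.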

How the data were processed

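The authors deposited, for 14 one-colour arrays, scanner output with processed signal intensity per spot, and a table of log2 values, centred per gene by a rule not stated (column medians -0.22 to 0.16), used here as an alternative. The labels name Agilent Feature Extraction 10.5.1, whereas the file headers give 10.5.1.1 for clones and 9.5.3.1 for IVF embryos. Processed intensities were quantile-normalized, floored at 16 and log2 transformed, with outlier spots left out and spots of a probe averaged. Testing took in each probe with a signal well above background somewhere in the pair of groups. Groups were compared in pairs with limma 3.58.1 in R 4.3.3, two-sided, with Benjamini-Hochberg adjustment over all tested probes, after a test on simulated data. The number of arrays limits the precision. A gene was read by its brightest probe, except that a *Kcnq1* probe matching *Kcnq1ot1* by accession was kept apart, and all 10 members were named. From the lists, at most the 3 largest rises and falls among called genes were named, besides *Foxa2*, *Fst*, *Dnmt1* and the second *Kcnq1ot1* probe, which were chosen after their values were seen, and for each member the 2 genes most like it. RefSeq tables named 32737 of 41174 probes. Same-numbered arrays deviated together only in male and female IVF embryos (r of 0.11 to 0.13 in the 3 pairs, from the data and not from a stated litter or day), so that a block was also fitted there. The members and lists were chosen with earlier results of these data known. Normalization, background, floor, filter, probe averaging, variance model, threshold and left-out arrays were varied.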

Additional observations from a re-analysis of the deposited data

Results flagged for a closer look

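Among 32 sets of 4 clone arrays (16 probes in 2 groups), 2 held an array that stood apart by Dixon's criterion, where chance at 5% gives 1.6. *Ascl2* in injection clones had one array at 5.98, while the other 3 lay between 5.47 and 5.51. *Osbpl5* in fusion clones had one array at 15.82, while the other 3 lay between 14.79 and 14.92.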

How the results depend on the processing

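Against female IVF embryos 0 members were called in fusion clones, a count that became 3 by the threshold of the study's methods (*Igf2*, *Slc22a18*, *Cd81*), 1 with a floor of 32 (*Ascl2*) and 2 with all 4 groups in 1 fit (*Igf2*, *Slc22a18*). It lay between 0 and 1 when 1 array was left out, and the 1 was *Ascl2* without IVF female replicate 1. In injection clones 0 became 3 by the methods' threshold, and 1 with normexp background correction, with a filter on all arrays of a group or with the mean of all probes of a gene (*Igf2* each time) and 1 with all 4 groups in 1 fit (*Slc22a18*), and it stayed 0 whichever array was left out. Between males and females it became 1 by the methods' threshold (*H19*), and between cloning methods it was 0 in every setting run. Of 800 values of single members' probes under alternatives, 15 became called, 0 reversed while called and 26 uncalled ones changed sign.

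Over all probes, the 3020 calls in fusion clones became 5591 by the methods' threshold, 1836 over gene means and 1307 to 3100 without 1 array. The 1186 in injection clones became 4617 by that threshold, 616 in the deposited table, 599 with a floor of 1, 774 with no filter, 1923 with the stricter filter, 3094 in the joint fit and 143 to 1359 without 1 array. Between methods 0 became 781, 2, 11 and 1 by the methods' threshold, deposited table, floor of 1 and joint fit, and 0 to 2 without 1 array. The 19 between sexes became 1874 by the methods' threshold, 7 with normexp, 151 in the deposited table, 103 with a floor of 1, 34 with no filter, 57 with the stricter filter, 206 in the joint fit, 3 with a variance trend and 1 to 38 without 1 array. With the replicate number as a block, 0 probes were called in each comparison. Outside the sexes, same-numbered arrays did not pair (r of -0.06 to 0.11). The cause of these changes was not tested. Signal near background limits *Kcnq1*, *Ascl2*, the dimmer probes of *H19* and *Slc22a18* and the clone levels of *Zfp57*.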
